A study of Mus musculus with 6 samples.

Results

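The genes described here encode the 3 enzymes that make serine from a glycolytic intermediate (Phgdh, Psat1 and Psph) and 7 enzymes of the folate cycle. Among the folate enzymes, Shmt1, Mthfd1 and Aldh1l1 encode cytosolic proteins and Shmt2, Mthfd2, Mthfd1l and Aldh1l2 mitochondrial ones. They were taken by gene symbol, 10 of 54532 genes in the deposited table, and each symbol matched 1 row. All 10 passed the filter on low values that left 14885 genes for testing. The samples were wild-type mouse granulosa cells, which enclose the oocyte in the ovarian follicle, and polyadenylated RNA was sequenced. In 3 libraries the cells had been given cyclophosphamide, an alkylating chemotherapy drug, for 24 h after 2 days of adherent culture, as an in vitro model of premature ovarian failure, and 3 libraries came from untreated cells. The treatment label of the drug-exposed samples speaks of intraperitoneal injection, whereas the protocol and the series design have the drug put on cells in culture, which is the reading used here. The dose of cyclophosphamide, the strain of mouse and the origin of the libraries of a group (separate cultures or not) were not given in the sources used here, so the p-values cover no more than library-to-library spread, possibly technical. The title of the series concerns serine and ferroptosis (death of cells through iron-dependent lipid oxidation), but no library is labelled as given serine.

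Serine is made in the cytosol from 3-phosphoglycerate by oxidation, transamination and dephosphorylation. Serine hydroxymethyltransferases split it into glycine and a single-carbon unit carried on tetrahydrofolate. Parallel sets of enzymes in the cytosol and the mitochondria interconvert the folate-bound units, and formate made in mitochondria can supply the cytosol for purine and thymidylate synthesis. Glycine also enters glutathione, and granulosa cells support the oocyte with metabolites.

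The libraries held 16458385 to 17607586 reads, and correlated at 0.987 to 0.991 within the cyclophosphamide group, 0.989 to 0.991 within the untreated group and 0.899 to 0.910 between groups (Pearson, log2 values). Cyclophosphamide replicate 1 lay apart from replicates 2 and 3 on the second principal component (28.0 against -20.3 and -6.72, 4.68% of the variance). Of 13 tested granulosa markers 2 were higher and 9 lower with cyclophosphamide, and their summed level was 1126 to 1433 FPKM in cyclophosphamide libraries and 2890 to 3064 FPKM in untreated libraries. Most of that sum was Inha (905 FPKM with cyclophosphamide, 1984 untreated) and Inhba (90.4 with cyclophosphamide, 574 untreated). The 9 falls differed in size, with log2 fold changes of -0.45 for Foxl2 and -4.90 for Inhbb. Kitl (0.96) and Nr5a1 (0.33) were the 2 called higher, and Gatm and Wt1 were not called. FPKM scales the reads of a gene by its length and by a library size, and the size built into the deposited values was 0.9751 to 1.038 times the reads recovered from them. The granulosa aromatase gene Cyp19a1 was close to absent, with 1 read over the cyclophosphamide and 3 over the untreated libraries, and Amh had 22 reads in the cyclophosphamide and 16 in the untreated libraries. Of the lists for other cell types, the summed level was higher with cyclophosphamide for macrophage (11.6 to 15.5 against 7.61 to 8.58 FPKM in untreated libraries), endothelial (2.10 to 2.68 against 0.756 to 1.01 in untreated), oocyte (3.12 to 4.18 against 0.670 to 0.939 in untreated) and theca and stroma genes (778 to 1046 against 474 to 504 in untreated, of which Star averaged 768 FPKM with cyclophosphamide and 41.1 FPKM in untreated cells). It was lower for surface epithelium (50.2 to 73.2 against 106 to 120.2 FPKM in untreated libraries) and for smooth muscle and pericyte genes (15.8 to 26.3 against 89.9 to 101 in untreated). Among them, 3 of 4 tested macrophage, 1 of 3 endothelial, 2 of 2 oocyte, 1 of 6 theca and stroma and 2 of 8 smooth muscle genes were called higher. In the same order 1, 0, 0, 3 and 5 were called lower, as were 4 of 5 surface epithelium genes. Over all tested genes 33.1% were called higher and 35.8% lower. Single markers of these types ranged between scarce and abundant, and those given here were picked with their values known. The pan-leukocyte gene Ptprc had 7 reads in the cyclophosphamide and 9 in the untreated libraries, whereas the macrophage receptor gene Csf1r had 1271 with cyclophosphamide and 310 untreated. Of the same list Cd68 and Cd14 were also called higher, and Lyz2 was called lower (101 reads with cyclophosphamide, 188 untreated). C1qa, C1qb and C1qc, too low to test, had 2, 1 and 4 reads with cyclophosphamide and 10, 8 and 16 untreated. The oocyte coat genes Zp2 and Zp3 had 9 and 7 reads in cyclophosphamide libraries and 0 in untreated ones, and the oocyte growth factor gene Gdf9 had 253 with cyclophosphamide and 41 untreated. The endothelial adhesion gene Esam had 267 reads with cyclophosphamide and 38 untreated. The summed endothelial rise rests on Esam, at 1.80 FPKM with cyclophosphamide and 0.261 FPKM untreated. Tek (0.189 FPKM with cyclophosphamide, 0.367 untreated) and Cdh5 (0.139 with cyclophosphamide, 0.178 untreated) were not called. The theca gene Cyp17a1 had 8 reads with cyclophosphamide and 1 untreated, and the collagen gene Col1a1 had 1204 with cyclophosphamide and 4690 untreated. Cyp11a1 of the same list averaged 122 FPKM with cyclophosphamide and 424 FPKM untreated, so the summed theca and stroma rise rests on Star. Lhcgr of this list had 5 reads with cyclophosphamide and 35 untreated. With Cyp17a1 and Lhcgr this low, the sum was not read as a measure of theca cells. The smooth muscle actin gene Acta2 had 871 reads with cyclophosphamide and 7640 untreated. The summed smooth muscle and pericyte fall rests on Acta2, at 9.64 FPKM with cyclophosphamide and 84.6 FPKM untreated. Notch3 (2783 reads with cyclophosphamide, 716 untreated) and Pdgfrb (421 with cyclophosphamide, 212 untreated) were the 2 called higher in that list, against 5 called lower. The epithelial keratin gene Krt8 had 2318 reads with cyclophosphamide and 5085 untreated. The summed surface epithelium fall rests on Krt8 (23.0 FPKM with cyclophosphamide, 51.1 untreated) and Krt18 (35.7 with cyclophosphamide, 60.7 untreated). The part of these marker changes in the results below was not tested, and in bulk RNA fewer cells of a type and less RNA per cell cannot be told apart.

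The promoters of the Shmt genes and of Mthfd2, Mthfd1l and Mthfd1 are printed to set mitochondrial beside cytosolic enzymes, Mthfd1l being the mitochondrial gene that fell, and that of Phgdh as the most abundant gene of the group. RefSeq gave windows for 9 of the 10 genes by symbol. Aldh1l2 had no entry. The windows below are the 250 bases before the RefSeq start site, read 5′ to 3′ on the gene's strand, in build GRCm38.p6. They are chr10:127522445-127522694 for Shmt2 (minus strand), chr11:60811266-60811515 for Shmt1 (minus), chr6:83317605-83317854 for Mthfd2 (minus), chr10:3972825-3973074 for Mthfd1l (plus), chr12:76254982-76255231 for Mthfd1 (plus) and chr3:98339970-98340219 for Phgdh (minus). Capitals mark letters that match 1 of 5 motifs on either strand: the CCAAT box, named after its letters, the GC box with the letters GGGCGG, the antioxidant response element core with TGACNNNGC, the core of the composite element of ATF4 and C/EBP proteins with TGATGNAA, and the E-box with CACGTG.
Shmt2: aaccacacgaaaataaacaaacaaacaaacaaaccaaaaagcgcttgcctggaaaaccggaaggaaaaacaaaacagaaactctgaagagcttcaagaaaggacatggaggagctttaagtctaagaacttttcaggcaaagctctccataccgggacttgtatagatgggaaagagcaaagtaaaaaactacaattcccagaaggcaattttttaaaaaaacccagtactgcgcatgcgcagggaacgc
Shmt1: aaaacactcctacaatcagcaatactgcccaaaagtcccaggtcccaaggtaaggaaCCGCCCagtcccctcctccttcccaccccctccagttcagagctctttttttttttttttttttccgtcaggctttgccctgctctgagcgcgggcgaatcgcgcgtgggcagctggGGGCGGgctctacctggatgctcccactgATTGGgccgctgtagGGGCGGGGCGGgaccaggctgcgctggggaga
Mthfd2: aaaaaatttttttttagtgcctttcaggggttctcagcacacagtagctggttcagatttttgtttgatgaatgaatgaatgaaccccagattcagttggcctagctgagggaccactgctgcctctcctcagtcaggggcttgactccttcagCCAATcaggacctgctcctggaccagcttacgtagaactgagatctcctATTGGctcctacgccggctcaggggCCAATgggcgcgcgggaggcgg
Mthfd1l: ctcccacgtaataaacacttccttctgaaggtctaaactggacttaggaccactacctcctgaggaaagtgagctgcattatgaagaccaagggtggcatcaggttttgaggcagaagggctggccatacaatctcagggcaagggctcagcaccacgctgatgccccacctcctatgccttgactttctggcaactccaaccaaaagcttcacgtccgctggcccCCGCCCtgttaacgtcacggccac
Mthfd1: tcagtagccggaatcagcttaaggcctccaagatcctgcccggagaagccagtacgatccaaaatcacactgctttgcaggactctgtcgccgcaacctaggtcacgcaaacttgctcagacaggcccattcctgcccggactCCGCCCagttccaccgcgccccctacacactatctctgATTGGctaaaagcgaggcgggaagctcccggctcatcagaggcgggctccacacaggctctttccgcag
Phgdh: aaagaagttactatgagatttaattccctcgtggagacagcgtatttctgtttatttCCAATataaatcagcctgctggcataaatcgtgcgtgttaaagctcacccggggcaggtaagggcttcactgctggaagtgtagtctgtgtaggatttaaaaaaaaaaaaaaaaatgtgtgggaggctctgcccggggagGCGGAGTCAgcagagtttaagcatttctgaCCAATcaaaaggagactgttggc

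The windows of the mitochondrial Shmt2 and the cytosolic Shmt1 differed in base composition and in matches. Shmt2 was 40.8% G and C and held none of the 5 motifs. Shmt1 was 60.0% G and C and held a CCAAT box and 4 GC boxes, 2 of which share a letter. Mthfd2 held 3 CCAAT boxes, Mthfd1l held 1 GC box, and Mthfd1 held 1 of each. CCAAT occurs in 33.8% and GGGCGG in 32.7% of the 32851 RefSeq windows of this length. Phgdh held 2 CCAAT boxes and a match to TGACNNNGC 53 bases before its start site, found in 10.2% of all windows. None of the 10 windows of the 9 genes held TGATGNAA (3.45% of all windows) or CACGTG (6.02%), which says only that these letters are not in these windows. The start site used for Mthfd2 lies 8304 bases inside the gene as the deposited table draws it, and that of Shmt1 453 bases inside.

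With cyclophosphamide, 7 of the 10 genes were higher, 2 were lower and 1 did not pass the test (limma on log2(FPKM + 0.1), Benjamini-Hochberg adjusted p under 0.05 over all tested genes). The mitochondrial Mthfd2 and Aldh1l2 rose most, Psph and Shmt2 rose less, and Phgdh, Psat1 and Mthfd1 least. Aldh1l1 and Mthfd1l fell, and Shmt1 had no detectable change. The response across the transcriptome was wide: 68.9% of tested genes were called, 33.1% higher and 35.8% lower, and 73.1% had groups that did not overlap, against 9 of the 10 enzyme genes. A call for a single enzyme gene is therefore common background, and the sizes of the changes are given below. Without cyclophosphamide replicate 1, the enzyme genes called were 6 higher and 2 lower. The median log2 fold change was 0.36 over the 10 genes and -0.02 over all tested genes. Log2 fold changes are given ± their moderated standard error, with n = 3 libraries in each group.

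**Figure D1:**
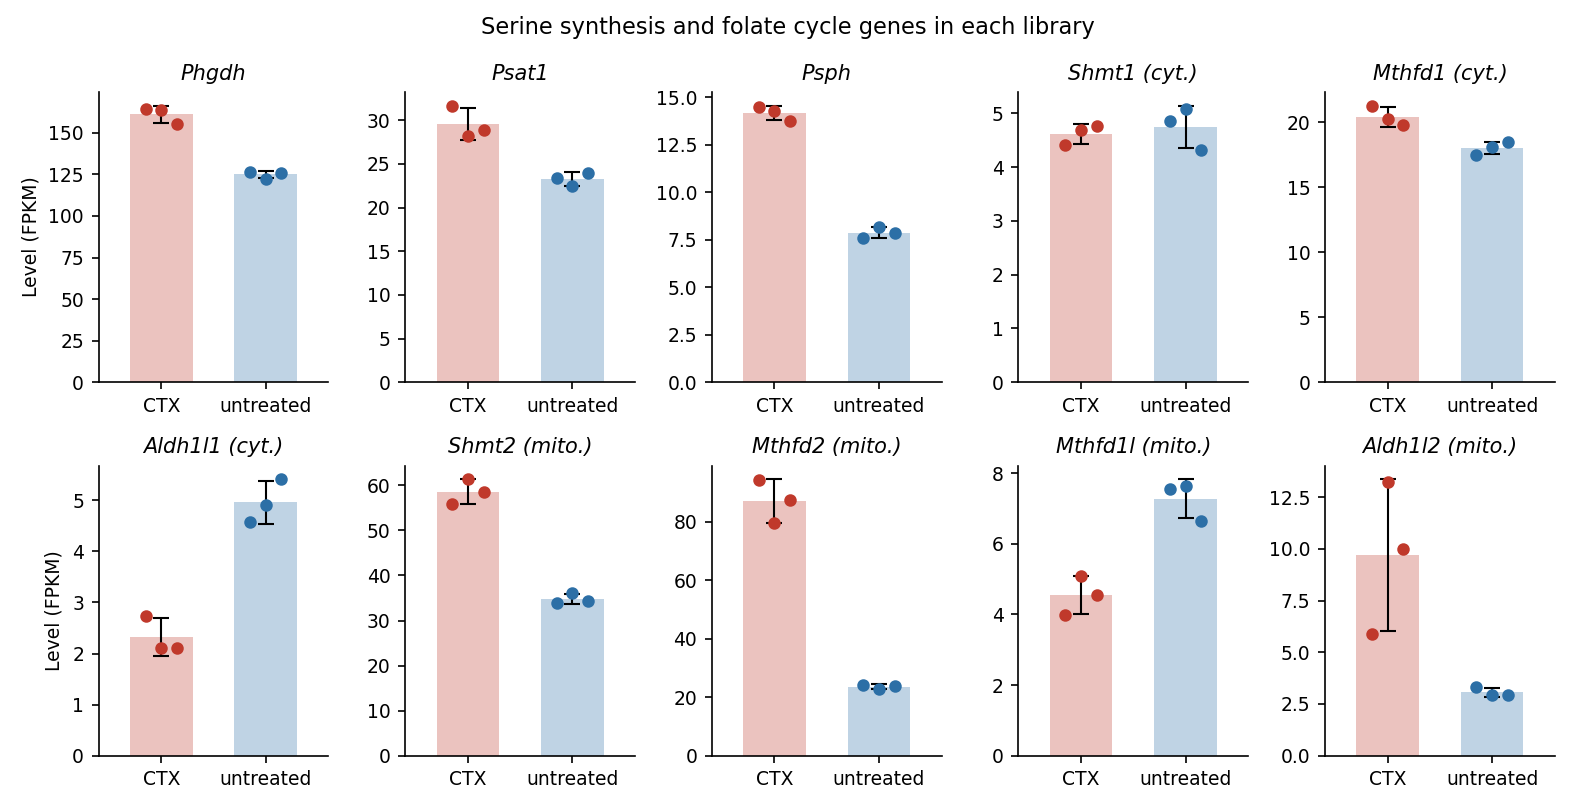
Level in FPKM (y axis, from 0) of each of the 10 genes, with cyclophosphamide (CTX, red) left of untreated (blue); points are libraries, bars are means and error bars are SD (n = 3), and cyt. and mito. give the compartment of the folate enzymes. The groups overlap only for Shmt1, and the CTX points of Aldh1l2 spread widely, between 5.90 and 13.2 FPKM.

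All 3 genes of serine synthesis rose, by 1.27-fold to 1.80-fold in mean level, and the last step rose most. Phgdh (ENSMUSG00000053398, chr3:98313170-98339990 in the table's coordinates, which match GRCm38) encodes 3-phosphoglycerate dehydrogenase, the first and committed enzyme. It had 165, 164 and 155 FPKM in cyclophosphamide libraries, against 127, 123 and 126 FPKM in untreated libraries. Every treated library lay above every untreated one, and at this level Phgdh exceeded 98.3% of tested genes in mean FPKM. Its log2 fold change was 0.36 ± 0.07 (limma, adjusted p = 0.0015) and exceeded that of 68.7% of tested genes.

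Psat1 (ENSMUSG00000024640, chr19:15904678-15947337) encodes the transaminase of the second step. It had 31.7, 28.3 and 28.9 FPKM with cyclophosphamide and 23.4, 22.4 and 24.0 FPKM in untreated cells, without overlap. The log2 fold change of 0.35 ± 0.07 (limma, adjusted p = 0.002) was close to that of Phgdh and exceeded that of 67.6% of tested genes. Psph (ENSMUSG00000029446, chr5:129765558-129787449) encodes the phosphatase that releases serine. Its levels were 14.5, 14.3 and 13.7 FPKM in cyclophosphamide libraries, against 7.58, 8.18 and 7.87 FPKM in untreated libraries. Psph was thus the least abundant of the 3 in both groups and the one with the largest rise. Its log2 change was 0.84 ± 0.07 (limma, adjusted p = 1.8e-05) and exceeded that of 86.5% of tested genes. Summed over the 3 genes the level was 205 ± 6.52 FPKM with cyclophosphamide and 156 ± 2.64 FPKM in untreated cells (SD, n = 3), and Phgdh made up 78.6% of it in treated and 80.1% in untreated cells.

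The serine hydroxymethyltransferase genes, whose products move the single-carbon unit of serine onto folate, had 1 rise and 1 result that did not pass the test. The mitochondrial Shmt2 (ENSMUSG00000025403, chr10:127517123-127522444) had 55.8, 61.3 and 58.5 FPKM with cyclophosphamide and 33.9, 36.1 and 34.3 FPKM in untreated cells. Its groups were far apart, and the log2 fold change was 0.75 ± 0.06 (limma, adjusted p = 2.2e-05). The cytosolic Shmt1 (ENSMUSG00000020534, chr11:60788104-60811718) had 4.41, 4.70 and 4.76 FPKM with cyclophosphamide and 4.85, 5.08 and 4.31 FPKM in untreated cells, and these ranges overlap. Its log2 fold change was -0.04 ± 0.10 (limma, adjusted p = 0.76), with a 95% interval of -0.26 to 0.19, and its sign was positive under upper-quartile or total-read scaling and without untreated replicate 2. Changes within that interval were not excluded by these libraries.

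The MTHFD enzymes interconvert the folate-bound units and release formate. Mthfd2 (ENSMUSG00000005667, chr6:83305691-83325908), the mitochondrial dehydrogenase and cyclohydrolase, had the largest change of the group. It had 94.2, 79.4 and 87.4 FPKM in cyclophosphamide libraries, against 24.1, 22.8 and 23.9 FPKM in untreated libraries, a ratio of means of 3.68. The log2 fold change was 1.87 ± 0.07 (limma, adjusted p = 9.7e-07) and exceeded that of 97.7% of tested genes. Mthfd1 (ENSMUSG00000021048, chr12:76255298-76319803), which in the cytosol joins these activities with formate-folate ligation in 1 protein, had 21.3, 20.2 and 19.8 FPKM with cyclophosphamide and 17.5, 18.1 and 18.5 FPKM in untreated cells. The groups did not overlap, but the log2 fold change was only 0.18 ± 0.06 (limma, adjusted p = 0.027). This call was lost without cyclophosphamide replicate 1 (adjusted p = 0.051) or without untreated replicate 1 (0.091), 2 (0.057) or 3 (0.056), the first of which left a log2 change of 0.15.

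Mthfd1l (ENSMUSG00000040675, chr10:3973118-4167081), the mitochondrial synthetase that releases formate, went against its arm. It had 3.999, 5.09 and 4.56 FPKM with cyclophosphamide and 7.55, 7.65 and 6.66 FPKM in untreated cells, with every treated library lower. Its log2 fold change was -0.67 ± 0.11 (limma, adjusted p = 0.00095). Formate release and the step that feeds it thus had transcripts that moved in opposite directions, since Mthfd2 rose.

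The ALDH1L enzymes oxidise formyl-tetrahydrofolate to carbon dioxide with production of NADPH, and their genes showed the widest split. The mitochondrial Aldh1l2 (ENSMUSG00000020256, chr10:83487450-83534140) had 5.90, 13.2 and 9.98 FPKM in cyclophosphamide libraries, against 3.32, 2.96 and 2.94 FPKM in untreated libraries. The treated libraries differed more among themselves (37.8% coefficient of variation) than for any other of the 10 genes, though all lay above the untreated ones. The log2 fold change was 1.55 ± 0.26 (limma, adjusted p = 0.00086), with 1.87 ± 0.14 without cyclophosphamide replicate 1 and 1.30 ± 0.21 without cyclophosphamide replicate 2. The cytosolic Aldh1l1 (ENSMUSG00000030088, chr6:90486427-90600203) had 2.74, 2.10 and 2.11 FPKM with cyclophosphamide and 4.57, 4.91 and 5.41 FPKM in untreated cells. Its level in treated cells was below every untreated value, with a log2 change of -1.07 ± 0.14 (limma, adjusted p = 0.00021). At least 2-fold rises, as for Mthfd2 and Aldh1l2, were called for 10% of all tested genes, and at least 2-fold falls, as for Aldh1l1, for 16.6%.

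**Figure D2:**
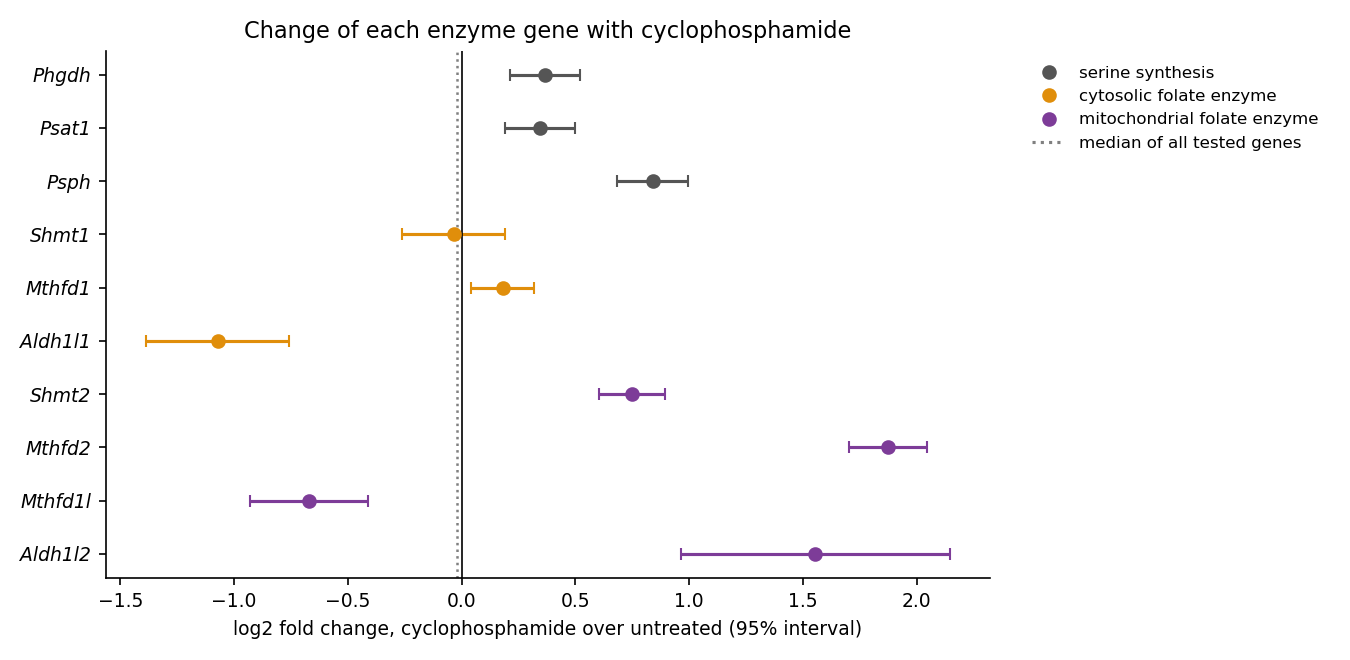
Log2 fold change of each gene, cyclophosphamide over untreated (x axis), with points for the limma estimate and bars for its 95% interval, coloured by role; the dotted line is the median of all tested genes (-0.02). Mthfd2 (1.87) and Aldh1l2 (1.55) lie farthest right, Aldh1l1 (-1.07) and Mthfd1l (-0.67) lie left of 0, and the interval of Shmt1 spans 0.

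The mitochondrial and cytosolic arms were set against each other by counts and summed levels. Among the 4 mitochondrial genes 3 rose and 1 fell (median log2 fold change 1.15), and among the 3 cytosolic genes 1 rose, 1 fell and 1 was not called (median -0.04). Beside these counts, 33.1% of all tested genes were called higher and 35.8% lower. The cytosolic rise is that of Mthfd1, whose call was lost in 6 of the alternative fits described below. The summed level of the mitochondrial genes was 159.8 ± 0.712 FPKM with cyclophosphamide and 68.8 ± 0.896 FPKM in untreated cells (SD, n = 3), a ratio of 2.32. That of the cytosolic genes was 27.4 ± 0.928 FPKM with cyclophosphamide and 27.7 ± 0.710 FPKM in untreated cells, a ratio of 0.987. Most of the cytosolic sum was Mthfd1 (20.4 FPKM with cyclophosphamide, 18.0 untreated), and its rise offset the fall of Aldh1l1 (2.32 with cyclophosphamide, 4.96 untreated). Mthfd2 supplied 54.5% of the mitochondrial sum in treated cells and 34.4% in untreated cells. The sums are descriptions and were not tested.

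Ratios between paralogs within a library do not depend on the scaling between libraries. Shmt2 was 12.6, 13.1 and 12.3 times as abundant as Shmt1 in cyclophosphamide libraries, against 6.99, 7.12 and 7.94 times in untreated libraries. The log2 ratio was 0.79 ± 0.06 higher with cyclophosphamide (SE from the spread of 3 libraries in each group). Mthfd2 was 4.43, 3.92 and 4.42 times as abundant as Mthfd1 with cyclophosphamide and 1.38, 1.26 and 1.30 times in untreated cells, a log2 difference of 1.69 ± 0.07. Most of the untreated excess of Mthfd2 rests on gene length (3487 bases, and 4442 for Mthfd1). Untreated reads were 1375, 1390 and 1411 for Mthfd2 and 1270, 1403 and 1387 for Mthfd1. For Aldh1l2 over Aldh1l1 the order of the genes turned round in FPKM. The untreated order rests on gene length (7503 and 4516 bases). Untreated reads were 407, 387 and 373 for Aldh1l2 and 337, 387 and 413 for Aldh1l1. The FPKM ratio was 2.15, 6.29 and 4.72 with cyclophosphamide and 0.727, 0.602 and 0.544 in untreated cells, a log2 difference of 2.63 ± 0.47. Mthfd1l over Mthfd1 moved the other way, at 0.188, 0.252 and 0.230 with cyclophosphamide and 0.431, 0.423 and 0.360 in untreated cells, a log2 difference of -0.85 ± 0.15. In each of the 4 pairs the groups did not overlap, and the exact two-sided permutation test gave p = 0.10 (0.10 after Benjamini-Hochberg adjustment over the 4 pairs), the smallest that 3 against 3 libraries allow, so no pair could pass 0.05.

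**Figure D3:**
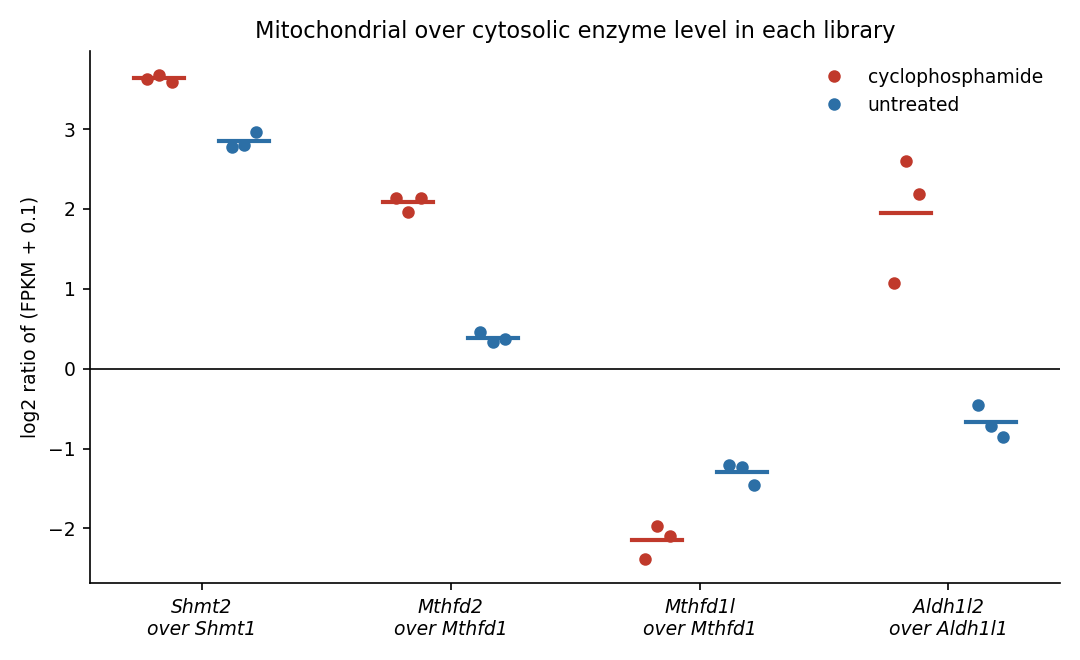
Log2 ratio of mitochondrial over cytosolic enzyme level (y axis, FPKM + 0.1) for 4 gene pairs in each library; points are libraries, lines are group means, and cyclophosphamide (red) stands left of untreated (blue). The Shmt, Mthfd2 and Aldh1l pairs are higher with cyclophosphamide (differences 0.79, 1.69 and 2.63), and Mthfd1l over Mthfd1 is lower (-0.85).

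The order of the levels, per length, changed with treatment. In cyclophosphamide libraries it ran Phgdh (161 FPKM), Mthfd2 (87.0), Shmt2 (58.5), Psat1 (29.6), Mthfd1 (20.4), Psph (14.2), Aldh1l2 (9.70), Shmt1 (4.62), Mthfd1l (4.55) and Aldh1l1 (2.32), and only the ranges of Shmt1 and Mthfd1l overlapped among neighbours. In untreated libraries it ran Phgdh (125 FPKM), Shmt2 (34.8), Mthfd2 (23.6), Psat1 (23.3), Mthfd1 (18.0), Psph (7.88), Mthfd1l (7.28), Aldh1l1 (4.96), Shmt1 (4.75) and Aldh1l2 (3.07). There the ranges of Mthfd2 and Psat1, of Psph and Mthfd1l, and of Aldh1l1 and Shmt1 overlapped. Mthfd2 passed Shmt2 with treatment, and Aldh1l2, the lowest in untreated cells, passed 3 others.

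Reads behind these values ranged between 165 (Aldh1l1) and 7290 (Phgdh) per gene and library. Some genes overlap others, and the strand setting of the counting was not given in the sources used here, so reads in the shared parts cannot be told apart. Shmt1 shares 184 bases with Smcr8 on the opposite strand, which had 11388 reads in the cyclophosphamide and 4668 in the untreated libraries. Psph shares 452 bases with Cct6a (14716 reads with cyclophosphamide and 13124 untreated), on the opposite strand. Aldh1l2 shares 1056 bases with D10Wsu102e (4577 reads with cyclophosphamide and 3087 untreated), also on the opposite strand. Mthfd2 shares 2799 bases with Gm43890 on its own strand, which had 166 reads in the cyclophosphamide and 21 in the untreated libraries.

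The genes that fell are long in the deposited table. Mthfd1l spans 194 kb and Aldh1l1 114 kb, and among 1135 tested protein-coding genes of 100 to 200 kb the median log2 fold change was -0.37, with 53.3% called lower and 22.3% higher. Among 2672 genes of 25 to 50 kb, which include Phgdh, Psat1 and Aldh1l2, the median was 0.06. In RefSeq, Aldh1l1 spans only 48.4 kb, with its promoter window's start site 64366 bases inside the table's gene, whereas Mthfd1l spans 194 kb there too. The part of gene span in these falls was not tested.

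**Figure D4:**
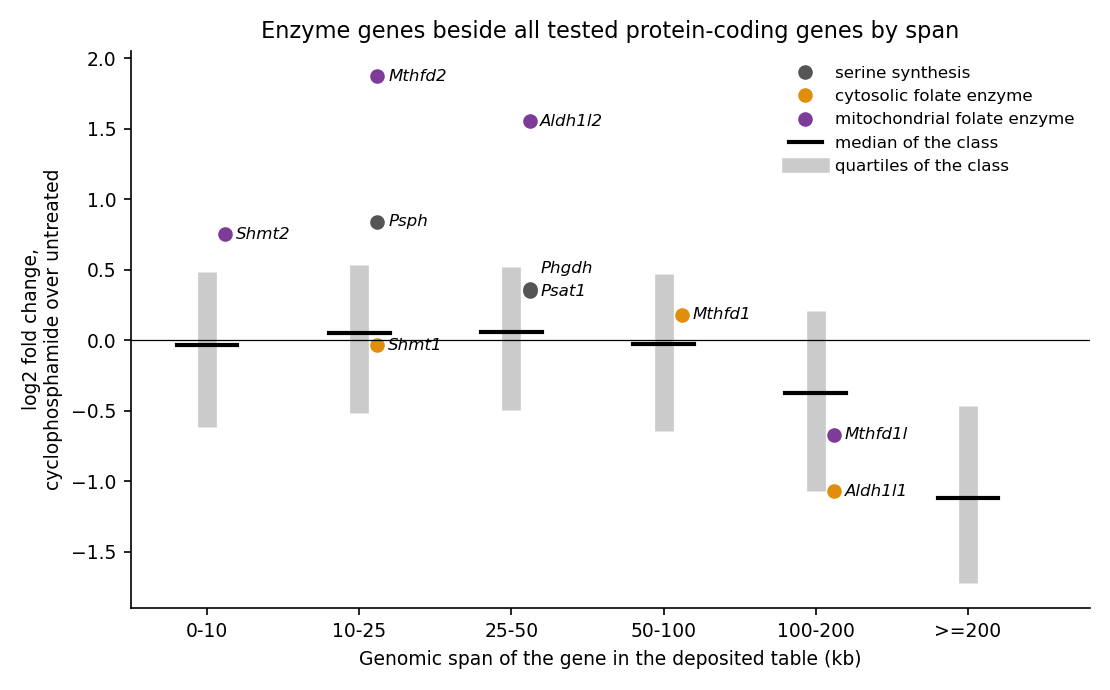
Log2 fold change, cyclophosphamide over untreated (y axis), by genomic span in the deposited table (x axis, kb); black lines and grey bars are the median and quartiles of all tested protein-coding genes in a class, and points are the enzyme genes. Mthfd1l and Aldh1l1 lie in the class of 100 to 200 kb, whose median is -0.37, and the other 8 genes lie in classes with medians between -0.04 and 0.06.

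Other genes that handle folate moved both ways. Of 13 tested genes for folate uptake, storage and other folate steps 5 rose and 4 fell, with a median log2 fold change of 0.16. Beside this count and those of the next lists stand 33.1% of all tested genes called higher and 35.8% called lower. Slc19a1, the reduced folate carrier of the plasma membrane, had 11.2, 13.8 and 12.6 FPKM with cyclophosphamide and 6.42, 6.25 and 6.74 FPKM in untreated cells, and rose by 0.94 ± 0.09 (limma, adjusted p = 5.1e-05). Chosen after its values were seen, Slc25a32, the mitochondrial folate carrier, rose by 0.96 ± 0.11. Among the genes that fell, also chosen after their values were seen, the log2 change was -0.72 ± 0.15 for Folr1, -0.57 ± 0.07 for Ggh and -0.50 ± 0.09 for Qdpr. Mthfd2l, a mitochondrial paralog of Mthfd2, did not pass the test, at -0.15 ± 0.11 (limma, adjusted p = 0.25).

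The 4 genes of the glycine cleavage system, which in mitochondria passes a carbon of glycine to folate, split evenly. Gldc, the decarboxylase, had 0.421, 0.713 and 0.663 FPKM with cyclophosphamide and 2.999, 3.19 and 2.77 FPKM in untreated cells, a log2 change of -2.17 ± 0.19 (limma, adjusted p = 3.2e-05). Gcsh, the lipoyl carrier protein, also fell (-0.84 ± 0.08), while Amt (1.07 ± 0.16) and Dld (0.30 ± 0.07), a subunit shared with other complexes, rose. The median of the list was -0.27.

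Of 11 tested genes of serine use and of serine or glycine transport 6 rose and 3 fell (median 0.40). The largest rises were in carriers of the plasma membrane, Slc1a4 at 2.76 ± 0.06 (limma, adjusted p = 1.2e-07) and the glycine carrier Slc6a9 at 2.77 ± 0.09 (limma, adjusted p = 5.4e-07). Sideroflexin genes of the list, chosen after their values were seen, moved both ways: Sfxn1, which encodes a carrier of serine into mitochondria, rose by 0.46 ± 0.08, while its paralogs Sfxn2 (-1.19 ± 0.14; limma, adjusted p = 0.00015) and Sfxn3 (-0.91 ± 0.09; limma, adjusted p = 5.6e-05) fell.

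Pathways that consume single-carbon units were described by lists of their own. Of 13 purine synthesis genes 5 rose and 2 fell (median 0.15), with Impdh2, which commits purines to guanine nucleotides, at 1.09 ± 0.06 (limma, adjusted p = 3.3e-06). Atic, which adds a formyl group from folate in the last steps of the pathway, had 33.1, 30.8 and 31.8 FPKM with cyclophosphamide and 18.1, 18.7 and 18.1 FPKM in untreated cells, a log2 change of 0.80 ± 0.06. Of 7 thymidylate genes 2 rose and 4 fell (median -0.22), among them Tyms, the thymidylate synthase that uses a folate-bound carbon, at -1.51 ± 0.13 (limma, adjusted p = 2.6e-05). Of 9 tested genes of the methionine cycle and transsulfuration 6 rose and 1 fell (median 0.44). Cth, the last enzyme of cysteine synthesis from homocysteine and serine, rose by 1.63 ± 0.10 (limma, adjusted p = 4.8e-06), and Mtrr, which reactivates methionine synthase, by 0.86 ± 0.08.

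**Figure D5:**
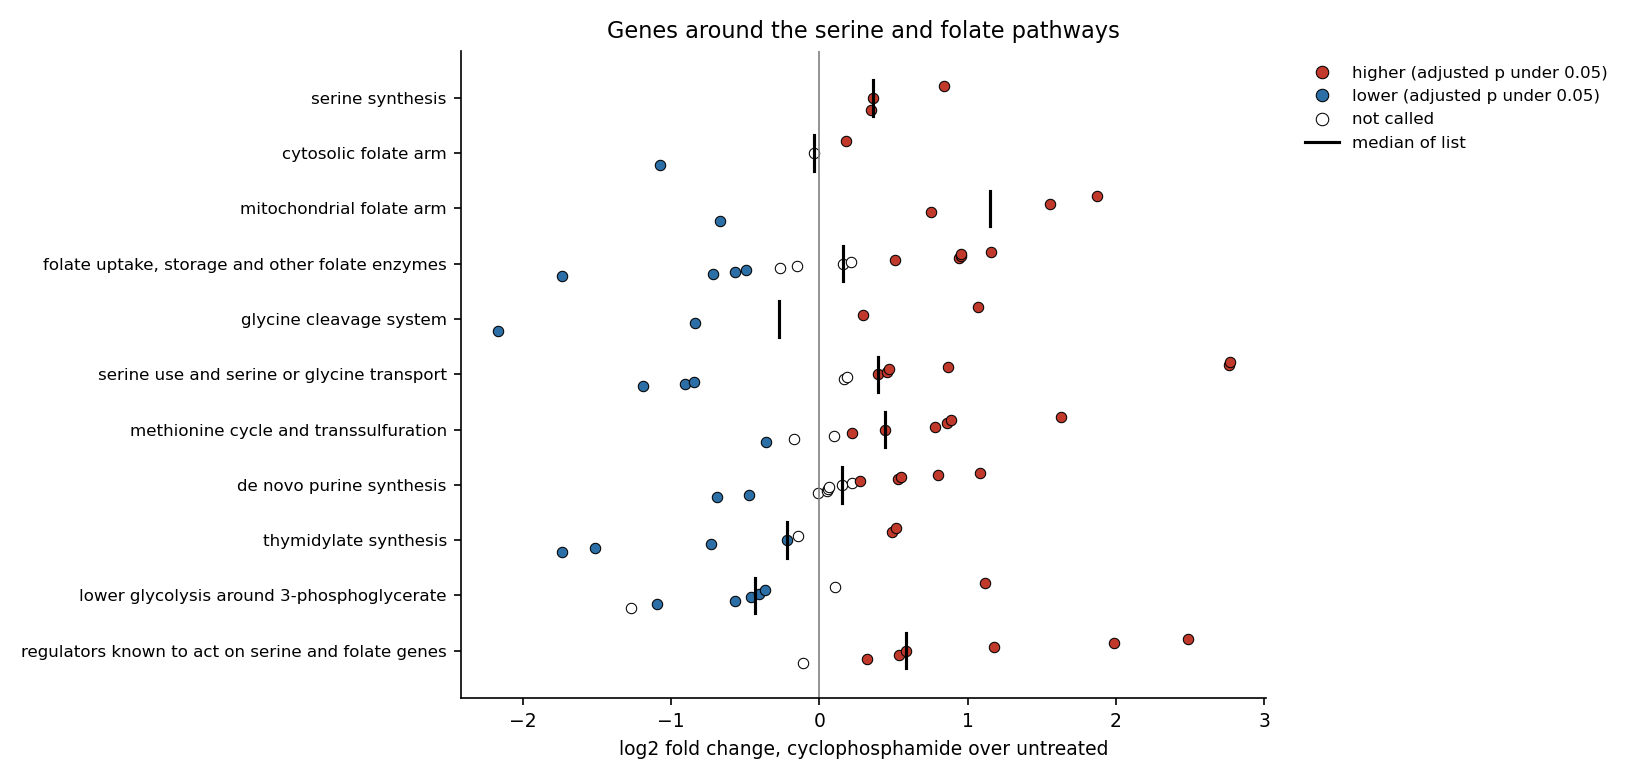
Log2 fold change, cyclophosphamide over untreated (x axis), of each tested gene in 11 lists around the serine and folate pathways; red points were called higher, blue lower and open points not called, and black lines are list medians. The mitochondrial folate arm has the highest median (1.15) and lower glycolysis the lowest (-0.43).

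Transcripts of factors known to act on serine and folate genes rose in 6 of 7 cases, with a median of 0.59. Of all tested genes 33.1% were called higher. Atf4, which encodes the factor of the amino acid response that activates Phgdh, Psat1, Shmt2 and Mthfd2, had 462, 373 and 387 FPKM with cyclophosphamide and 97.3, 105 and 104 FPKM in untreated cells. Its groups were far apart, with a log2 change of 1.99 ± 0.10 (limma, adjusted p = 2.5e-06). Mdm2, which encodes the p53 ubiquitin ligase, stood at 2.48 ± 0.15 (limma, adjusted p = 5.1e-06). ATF4 and p53 are controlled largely after transcription, and the files hold transcript levels alone.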

How the data were processed

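Per the submitters' processing notes, the authors used CASAVA and HISAT2 version 2.0.5 with build GRCm39. The counting tool, strand setting and annotation were not given in the sources used here. Although its name says raw counts, the table the authors deposited holds FPKM. Times the table's gene length, 100% of each library's values were a whole number of equal steps (tolerance 0.01 of a read), which gave the reads. Coordinates equalled those of GENCODE M21 (GRCm38) for 98.3% of 54409 shared gene IDs and are read as GRCm38.

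Genes with 10 reads in at least 3 libraries and 15 in all were tested on log2(FPKM + 0.1) with limma 3.58.1 (R 4.3.3, mean-variance trend, two-sided), without a replicate term. Such fold changes understate low genes. The fit was tested on simulated data, in which far fewer genes changed than were called here. Pair ratios were compared by exact permutation (scipy 1.17.1). The genes and lists were chosen with earlier results of these data known. All 10 enzyme genes are named, and from each list the 2 called genes with the smallest p-values. For 3 of the enzyme genes, the 2 most similar genes are named, by the root mean square difference over the 6 libraries of log2 values centred on the untreated mean. Others were chosen after their values were seen, and some genes under this rule are not reported here. Promoter sequences are RefSeq's (GRCm38.p6). Alternatives were other scalings, pseudocounts, filters, limma-voom, no trend, a replicate block and leaving out each library.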

Additional observations from a re-analysis of the deposited data

How the results depend on the processing

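Every alternative left the 2 genes called lower and at least 6 of the 7 called higher, and the one that could drop out was Mthfd1, whose adjusted p was also 0.064 without the variance trend. Shmt1 was never called, and its log2 fold change was 0.057 under upper-quartile and 0.011 under total-read scaling, and between -0.10 and 0.014 over the leave-one-out fits, the highest without untreated replicate 2. The other 151 of 160 gene-level values kept direction and side of the threshold. With a replicate block, genes called higher with cyclophosphamide numbered 4772 and genes called lower with cyclophosphamide 5165, with 6 and 2 among the enzyme genes, where Mthfd1 had adjusted p = 0.062. Same-numbered libraries did not deviate together (correlations -0.080, 0.0046 and -0.033), so the numbers were not taken as pairs. The pair differences in log2 ratio ranged over leave-one-out fits between 0.75 and 0.84 for Shmt2 over Shmt1, 1.66 and 1.75 for Mthfd2 over Mthfd1, -0.94 and -0.74 for Mthfd1l over Mthfd1, and 2.30 and 3.06 for Aldh1l2 over Aldh1l1. With a pseudocount of 1 the last was 2.18. Among list genes 830 values kept their call and 17 lost it, all of Ahcy, Dut or Pgam2. Counting limits precision most for Aldh1l1, with 165 to 204 reads in cyclophosphamide libraries.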

Other observations

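Genes of lower glycolysis, which carries carbon around 3-phosphoglycerate, the substrate of Phgdh, mostly fell. Of 8 tested genes 5 fell and 1 rose, with a median log2 fold change of -0.43. For comparison, 35.8% of the whole tested set was called lower and 33.1% higher. Among the 5, Pgam2 (149 reads with cyclophosphamide, 197 untreated) lost its call in 3 of the alternative fits. The abundant Pkm averaged 200 FPKM with cyclophosphamide and 186 FPKM untreated, and was not called (log2 change 0.10). Eno1, the main enolase gene, had 85.0, 69.2 and 70.0 FPKM with cyclophosphamide and 160, 159 and 159 FPKM in untreated cells, a log2 change of -1.10 ± 0.09 (limma, adjusted p = 2.1e-05), and Eno2 rose by 1.11 ± 0.15 (limma, adjusted p = 0.00032). Gapdh, not called, averaged 2.03 FPKM with cyclophosphamide and 8.04 FPKM in untreated cells, where replicate 2 alone had 18.98 FPKM. Gapdh and Eno1 have near-identical copies in the genome, which makes their reads uncertain.

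Over the 6 libraries, the genes whose log2 levels, centred on the untreated mean, lay closest to those of Mthfd2 were D16Ertd472e (root mean square difference 0.036) and Irf2bpl (0.049), among 7310 candidate protein-coding genes of at least 5 FPKM outside the lists. Closest to Shmt2 were Iars (0.032), a cytosolic transfer RNA synthetase gene, and Echdc2 (0.034), and closest to Phgdh were Tomm70a (0.020) and Exosc10 (0.028). With 6 libraries in 2 groups, this likeness rests mostly on similar fold changes.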
